A study of Sus scrofa with 8 samples.

Results

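Chemokines are small secreted proteins named by the spacing of their cysteines (CC, CXC, CX3C and XC), and chemokine receptors are the G protein-coupled receptors through which they steer leukocytes. Atypical receptors (ACKR) bind chemokines without G protein signalling and take them up. In liver, chemokines made by hepatocytes, resident macrophages, stellate cells and endothelium are known for recruiting monocytes, T cells and neutrophils. The genes described here are all rows of the pig liver expression table whose symbol consists of CCL, CXCL, CX3CL, XCL, CCR, CXCR, CX3CR, XCR or ACKR followed by a number. There were 51 of them among 18103 listed genes, and 50 are described, 30 ligands (19 CCL, 9 CXCL, 1 CX3CL and 1 XCL) and 20 receptors (9 CCR, 5 CXCR, 4 ACKR, 1 CX3CR and 1 XCR). The rule used names only and no measured value.

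Hepatic RNA of male Landrace x Large White pigs was sequenced in 8 libraries, 4 from the initial state, healthy pigs of 4 months on the control diet, and 4 from steatosis, the state at 6 months after 2 months on a steatotic diet rich in saturated fat, fructose, cholesterol and cholate and poor in methionine and choline. Each library was a pool of 2 pigs, and both states are the same animals, so n = 4 pools per group and no value belongs to 1 pig. Initial livers were biopsied by laparotomy and final livers taken after euthanasia, and therefore diet, age and the way of sampling cannot be told apart. In whole liver RNA, fewer cells of a type and less RNA per cell cannot be told apart either. Values are FPKM, fragments per kilobase scaled to the mapped fragments of the library, which are already per length, so that levels may be compared between genes.

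Initial pool 1 stood apart from the other libraries. Summed mRNA of 7 skeletal muscle genes was 2782 FPKM in it, against at most 20.9 in the other initial pools and at most 0.35 in steatosis, and summed mRNA of 7 stomach mucosa genes was 1543 FPKM against at most 29.2 and 6.95. Where leaving this pool out changes a call, both values are given. They are also given for some other members whose value moves, but not for all of them. Hepatocyte markers (ALB, TTR, APOA1, SERPINA1 and CYP2E1) summed to between 48429 and 87000 FPKM in all 8 libraries. Sequencing depth, estimated from the steps between low values, was between 92.5% and 100% of the deepest library. The 26 genes used were those whose low values above 0 were alike within 15%. Similar depth was therefore built into this estimate, and a large difference could not have appeared.

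Chemokine mRNA was higher in steatosis for a minority of members, and CCL14 was the member that was lower, at the wider of the limits used below. Members were called at an adjusted p under 0.01 together with more than 1 unit of change on the log2(FPKM + 0.1) scale, using limma and Benjamini-Hochberg adjustment over the 13175 genes that reached 0.3 FPKM in 4 or more libraries. Of the 30 ligands 24 passed this filter, 4 were called higher (CXCL14, CCL11, CCL8 and CCL4) and 0 lower. CCL11 passed the filter only through the steatosis pools, so that its difference was built into its selection, and the count supports nothing about the ligands as a group. Of the 20 receptors 13 passed, 1 was called higher (CCR1) and 0 lower. Among all tested genes 6.01% were called higher and 0.334% lower. With an adjusted p under 0.05 and no limit on the fold change, 11 ligands were higher and 1, CCL14, was lower, and 3 receptors were higher, beside 26.7% of all tested genes higher and 2.28% lower. The median log2 fold change was 0.60 over the 24 ligands, 0.38 over the 13 receptors and 0.25 over all tested genes.

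This excess of higher over lower genes moves with the scaling of the libraries. The deposited FPKM gave 792 genes higher and 44 lower (94.7% of calls higher), and scaling by the median ratio of tested genes gave 411 and 83 (83.2% higher), with a median over all genes of -0.01. Under that scaling 2 ligands (CXCL14 and CCL11) and 1 receptor (CCR1) were called higher, and the number of ligands called was 1 without initial pool 2 or without steatosis pool 1, 2 or 4 on the deposited scale. At an adjusted p under 0.05 after median ratio scaling, 4 ligands were higher (CXCL14, CCL11, CCL8 and CXCL12), CCL14 was lower and 2 receptors were higher (CCR1 and CXCR4), beside 11.7% of all genes higher and 9.74% lower. Which scaling is closer to the tissue was not tested. Log2 fold changes below are on the deposited scale, where the median gene stands at 0.25.

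Many members lie in a few clusters of the genome (RefSeq positions on assembly Sscrofa11.1). A cluster of 9 CC ligands on chromosome 12 (39479190 to 40800013) holds CCL4, CCL3L1, CCL14, CCL16, CCL5, CCL1, CCL8, CCL11 and CCL2, in this order. A gap parts its genes from CCL4 to CCL5, which ends at 39659121, from CCL1, which starts at 40728014, and those after it. The cluster contains CCL4, CCL8 and CCL11, which were called higher (CCL11 with the selection named above). It also holds the ligand that was lower at an adjusted p under 0.05, and the most abundant ligand, whose level did not pass the test. Genes of this cluster therefore did not all move the same way. Another 6 receptors lie on chromosome 13 (29033609 to 29374564) in the order CCR9, CXCR6, XCR1, CCR1, CCR3 and CCR2, among them the receptor called higher. The CXC ligands CXCL8, CXCL2, CXCL9, CXCL10, CXCL11 and CXCL13 lie on chromosome 8 (69932646 to 73077342), while CXCL14 lies on chromosome 2 (137803988 to 137813118).

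**Figure D1:**
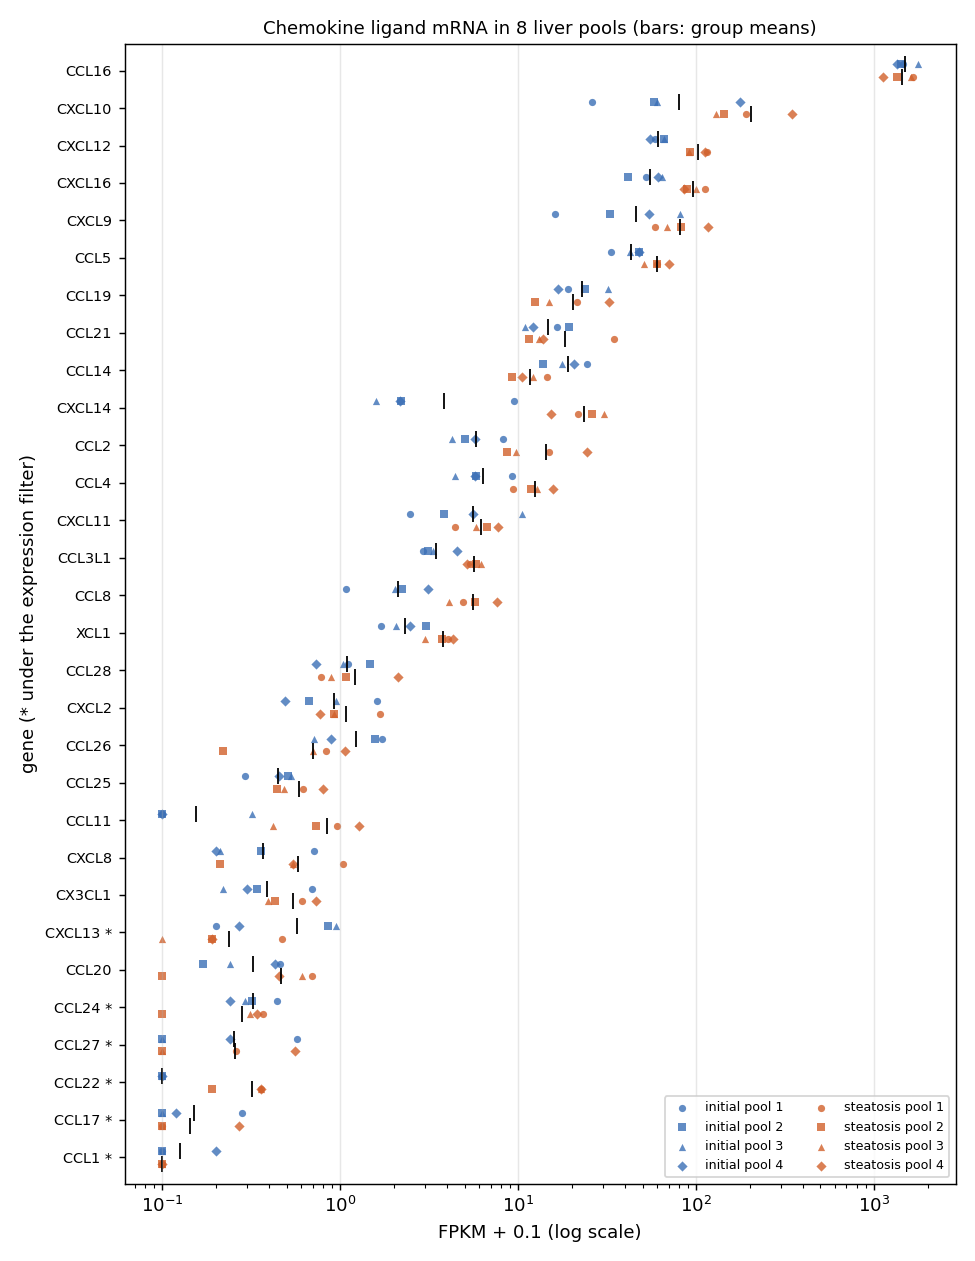
FPKM + 0.1 of the 30 ligands in each of the 8 pools on a log axis, blue for the initial state and orange for steatosis, with the marker shape giving the pool number and a black bar the group mean (n = 4 pools). A star marks ligands under the expression filter. CCL16 lies at 1119.7 FPKM or more in every pool, and the CXCL14 values of the groups do not overlap.

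The ligand mRNAs ran from 0 to 1760.5 FPKM. CCL16, a chemokine named for its expression in liver, dominated. Its level was 1458, 1417, 1760.5 and 1348 FPKM in initial pools 1 to 4 and 1657, 1352, 1619 and 1119.7 FPKM in steatosis pools 1 to 4. The groups overlap, and the log2 fold change was -0.07 (SE 0.15, adjusted p = 0.752, 95% interval -0.40 to 0.26). CCL16 made up between 73.9% and 83.5% of the summed ligand FPKM in the initial pools and between 56.1% and 74.4% in steatosis. A gene without a chemokine symbol, described as C-C motif chemokine 3 (gene ID 100515857), had 886.1 to 1113 FPKM in the 8 pools, second to CCL16, and with it in the sum the CCL16 share was 45.9% to 54.4% initially and 37.5% to 52.0% in steatosis. The sum of all other ligands with a chemokine symbol was 287.5 to 475.7 FPKM in the initial pools and 555.6 to 875.2 FPKM in steatosis, separate on the deposited scale. After median ratio scaling it was 318.4 to 594.7 and 518.6 to 792.9 FPKM, and the groups overlapped. With the added gene the groups overlapped as well, at 1249 to 1588 and 1457 to 1867 FPKM. These sums were chosen after seeing the data. Among the members, CCL16 was followed by CXCL10, CXCL12, CXCL16, CXCL9 and CCL5, whose means over the 8 pools lay between 51.6 and 141.3 FPKM. The ranges of neighbours in that order overlapped in both groups from CXCL12 to CCL5, and CXCL10 was separate from CXCL12 only in steatosis. CCL16 and CXCL10 were separate in both groups, as were CCL5 and the next ligand, CCL19.

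CXCL14, a CXC chemokine of epithelia that attracts monocytes and dendritic cells, had the largest log2 fold change of all members on the log2(FPKM + 0.1) scale. By the ratio of mean FPKM, CXCL14 and CCR1 were level at 6.21. CXCL14 measured 9.35, 2.10, 1.48 and 2.06 FPKM in initial pools 1 to 4, and 21.6, 25.9, 30.4 and 15.2 FPKM in the steatosis pools. Every steatosis pool was above every initial pool, and initial pool 1 was the highest initial value by a wide margin. Mean levels were 3.75 ± 3.75 and 23.3 ± 6.45 FPKM (SD, n = 4), and the difference on the log2 scale was 2.96 (SE 0.49, adjusted p = 0.00214). Without initial pool 1 the log2 fold change was 3.53 (adjusted p = 3.57e-05). The call was kept under all 15 alternatives of scaling, filter, pseudocount, block and left-out library, with log2 fold changes from 2.58 to 3.53.

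The monocyte chemoattractant proteins CCL2 and CCL8 and the eotaxin CCL11 are neighbours at one end of the chromosome 12 cluster. CCL8 had 0.97, 2.13, 1.93 and 3.01 FPKM initially and 4.79, 5.64, 3.97 and 7.51 FPKM in steatosis, with no overlap. The difference on the log2 scale was 1.46 (SE 0.31, adjusted p = 0.00723). The call was lost under 9 of 15 alternatives, with median ratio scaling (adjusted p = 0.0301) and without initial pool 2 or 3 or any 1 of the steatosis pools (adjusted p 0.0103 to 0.0234). CCL2, the main ligand of CCR2, had 8.07, 4.90, 4.14 and 5.6 FPKM initially and 14.8, 8.52, 9.63 and 24.3 FPKM in steatosis. The groups were separate, the closest pools being at 8.07 and 8.52 FPKM, and steatosis pool 4 was far above the others. Its log2 fold change of 1.24 (SE 0.32, adjusted p = 0.0180) did not reach the call, but did with the pool number as a block (adjusted p = 0.00626). With median ratio scaling it was 0.97 (adjusted p = 0.0671).

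CCL11, a ligand of the eosinophil receptor CCR3, was listed at 0 in initial pools 1, 2 and 4 and at 0.22 FPKM in initial pool 3. Steatosis pools 1 to 4 had 0.86, 0.63, 0.32 and 1.17 FPKM. All steatosis pools were above all initial pools, but the gene passed the filter only through the steatosis pools, so that a difference was built into its selection. The log2 fold change of 2.55 (SE 0.47, adjusted p = 0.00368) rests on the pseudocount of 0.1, and adding 1 FPKM instead gave 0.71. The call was also lost with the block (adjusted p = 0.0118) and without initial pool 2 or 4 or steatosis pool 1, 2 or 4 (adjusted p 0.0116 to 0.0134). The other eotaxins were not called, CCL26 at 1.12 ± 0.494 initially and 0.603 ± 0.354 FPKM in steatosis (adjusted p = 0.182), and CCL24 at no more than 0.34 FPKM in any pool.

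CCL3L1, CCL4 and CCL5 are inflammatory CC ligands that attract T cells and macrophages. CCL4 had 9.17, 5.70, 4.32 and 5.64 FPKM initially and 9.27, 11.7, 12.7 and 15.7 FPKM in steatosis. The groups are barely separate, since initial pool 1 lies just under steatosis pool 1, and the pair of pools numbered 1 showed almost no difference. The log2 fold change was 1.01 (SE 0.23, adjusted p = 0.00974), just inside both limits of the call. The call was lost under 13 of 15 alternatives, among them the block (adjusted p = 0.0206) and median ratio scaling (0.74, adjusted p = 0.0546). Without initial pool 1 the log2 fold change was 1.21 (adjusted p = 0.00191).

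CCL3L1 had 2.81, 3.03, 3.20 and 4.42 FPKM initially and 5.28, 5.66, 6.05 and 5.06 FPKM in steatosis, without overlap. The log2 fold change was 0.71 (SE 0.15, adjusted p = 0.00704), below the limit on the fold, or 0.45 after median ratio scaling (adjusted p = 0.112). The neighbouring gene described as C-C motif chemokine 3 had 1026 ± 76.7 and 970.5 ± 77.0 FPKM, and how reads were split between these closely related genes is uncertain. CCL5, a T cell chemokine also known as RANTES, had 33.2, 47.6, 42.3 and 48.0 FPKM initially and 59.98, 60.5, 50.8 and 70.2 FPKM in steatosis, again without overlap. The difference on the log2 scale was 0.50 (SE 0.14, adjusted p = 0.0252), and 0.23 after median ratio scaling (adjusted p = 0.312).

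CCL14, a ligand of CCR1 present in plasma, was the only member lower at an adjusted p under 0.05. It measured 24.3, 13.7, 17.5 and 20.4 FPKM initially and 14.4, 9.18, 12.1 and 10.4 FPKM in steatosis. It was lower in 4 of 4 pairs of same-numbered pools, a pairing that is an assumption. The groups overlap through initial pool 2 and steatosis pool 1. The log2 fold change of -0.70 (SE 0.19, adjusted p = 0.0221) did not reach the call. Median ratio scaling gave -0.97 (adjusted p = 0.0147).

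The interferon-induced ligands CXCL9, CXCL10 and CXCL11 lie side by side on chromosome 8 and share the receptor CXCR3 of activated T and NK cells. CXCL10 varied strongly within each group, with 26.0, 58.2, 60.4 and 176.7 FPKM in initial pools 1 to 4 and 190.4, 142.8, 130 and 346.2 FPKM in steatosis. Pool 4 was the highest in both groups, and the groups overlap through initial pool 4. The log2 fold change was 1.56 (SE 0.51, adjusted p = 0.0456), below the call. With the pool number as a block it was called (adjusted p = 0.00810), as it was without initial pool 4 (log2 fold change 2.05, adjusted p = 0.00713), whereas without initial pool 1 it was 1.13 (adjusted p = 0.0826).

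CXCL9 had 15.9, 32.8, 81.0 and 54.3 FPKM initially and 58.3, 82.3, 68.3 and 117.0 FPKM in steatosis. Pool 3 went against the other pairs, and the groups overlap. The log2 difference was 1.01 (SE 0.43, adjusted p = 0.106), with an adjusted p of 0.0396 under the block, and 0.58 without initial pool 1 (adjusted p = 0.188). CXCL11 had 2.38, 3.75, 10.4 and 5.45 FPKM initially and 4.34, 6.62, 5.72 and 7.62 FPKM in steatosis, where the highest value of all is an initial pool. The log2 difference was 0.32 (SE 0.38, adjusted p = 0.553), and -0.0047 without initial pool 1. Pool 3 of the initial state was the highest initial pool for both CXCL9 and CXCL11, but not for CXCL10.

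CXCL12, the ligand of CXCR4 that stromal and sinusoidal cells make constantly, had the lowest adjusted p of all tested ligands although its change stayed below the limit on the fold. Its values were 58.8, 65.6, 65.5 and 54.8 FPKM initially and 115.0, 92.4, 91.3 and 112.4 FPKM in steatosis. The groups were far apart relative to their spread, and the log2 fold change was 0.74 (SE 0.11, adjusted p = 0.00120), or 0.47 after median ratio scaling (adjusted p = 0.00996). CXCL16, a membrane-bound ligand of CXCR6 and scavenger receptor for oxidised lipoproteins, had 52.5, 41.1, 64.5 and 61.0 FPKM initially and 112.5, 88.7, 99.3 and 85.5 FPKM in steatosis. These groups did not overlap either, and the log2 fold change was 0.83 (SE 0.15, adjusted p = 0.00336), or 0.56 after median ratio scaling (adjusted p = 0.0577). XCL1, which T and NK cells secrete for XCR1-bearing dendritic cells, had 1.59, 2.95, 1.96 and 2.35 FPKM initially and 3.91, 3.64, 2.89 and 4.20 FPKM in steatosis. It was higher in 4 of 4 pairs with groups that overlap slightly, by 0.72 on the log2 scale (SE 0.20, adjusted p = 0.0220). After median ratio scaling the difference was 0.46 (adjusted p = 0.112). The share of all genes higher in 4 of 4 pairs was not counted, and 10373 of 13175 tested genes had a positive log2 fold change.

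**Figure D2:**
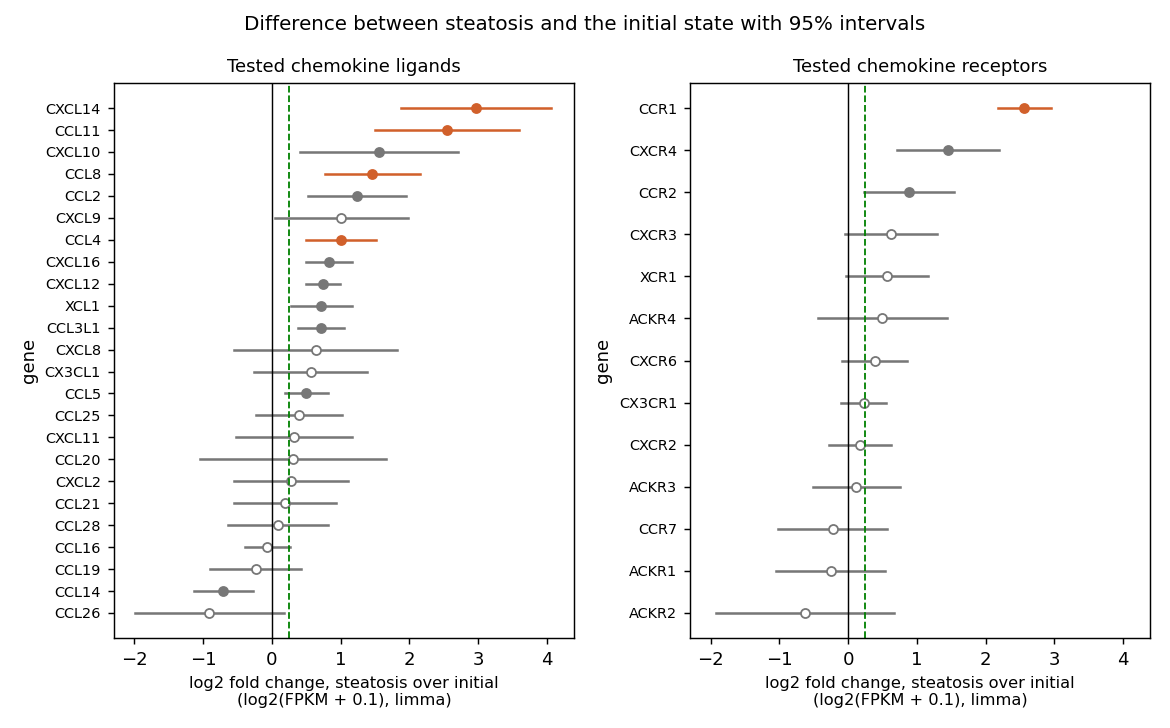
Log2 fold change, steatosis over initial state, of the 24 tested ligands (left) and 13 tested receptors (right), with 95% limma intervals (4 pools against 4). Orange marks members called higher, filled points those with an adjusted p under 0.05, and the green dashed line the median of all tested genes, 0.25. CXCL14, CCL11 and CCR1 lie beyond 2, and CCL14 is the only filled point below 0.

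CCL19 and CCL21, the ligands of CCR7 that guide T cells and dendritic cells into lymphoid tissue, gave no difference beyond the spread. CCL19 had 19.0, 23.7, 31.9 and 16.7 FPKM initially and 21.3, 12.3, 14.9 and 32.1 FPKM in steatosis (log2 fold change -0.23, SE 0.30, adjusted p = 0.576). CCL21 had 16.4, 19.3, 10.8 and 11.97 FPKM initially and 34.3, 11.4, 13.04 and 13.7 FPKM in steatosis (0.19, SE 0.33, adjusted p = 0.688). The highest CCL21 value, steatosis pool 1, stood alone, and without it the log2 fold change was -0.17.

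The remaining ligands with a chemokine symbol had means near 1 FPKM or below. CXCL8 and CXCL2, which attract neutrophils through CXCR2, had means of 0.27 and 0.828 FPKM initially and 0.48 and 0.97 FPKM in steatosis, and neither passed the test (adjusted p = 0.388 and 0.593). Without initial pool 1 their log2 fold changes were 1.02 and 0.60 in place of 0.64 and 0.28 (adjusted p = 0.154 and 0.189). CX3CL1, the ligand of CX3CR1, stood at 0.288 ± 0.208 and 0.44 ± 0.159 FPKM (log2 fold change 0.57, adjusted p = 0.269), or 0.89 without initial pool 1 (adjusted p = 0.0564). CCL20, CCL25 and CCL28, mucosal chemokines, did not pass either, with adjusted p values of 0.728, 0.314 and 0.860. Without initial pool 1 the log2 fold change of CCL20 was 0.51 in place of 0.31, and that of CCL25 0.20 in place of 0.39. Under the filter were CXCL13, CCL24, CCL27, CCL22, CCL17 and CCL1, none above 0.85 FPKM in any pool. CCL22, a macrophage and dendritic cell ligand of CCR4, was listed at 0 in all 4 initial pools and at 0.26, 0.09, 0.26 and 0.26 FPKM in steatosis. It is named after its values were seen and did not enter the fit. Over all 30 ligands 10 had groups without overlap, all higher in steatosis, beside 23% of all listed genes higher and 2.06% lower. Of the 24 tested ligands 9 had groups without overlap, beside 29.6% of all tested genes higher and 2.53% lower.

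**Figure D3:**
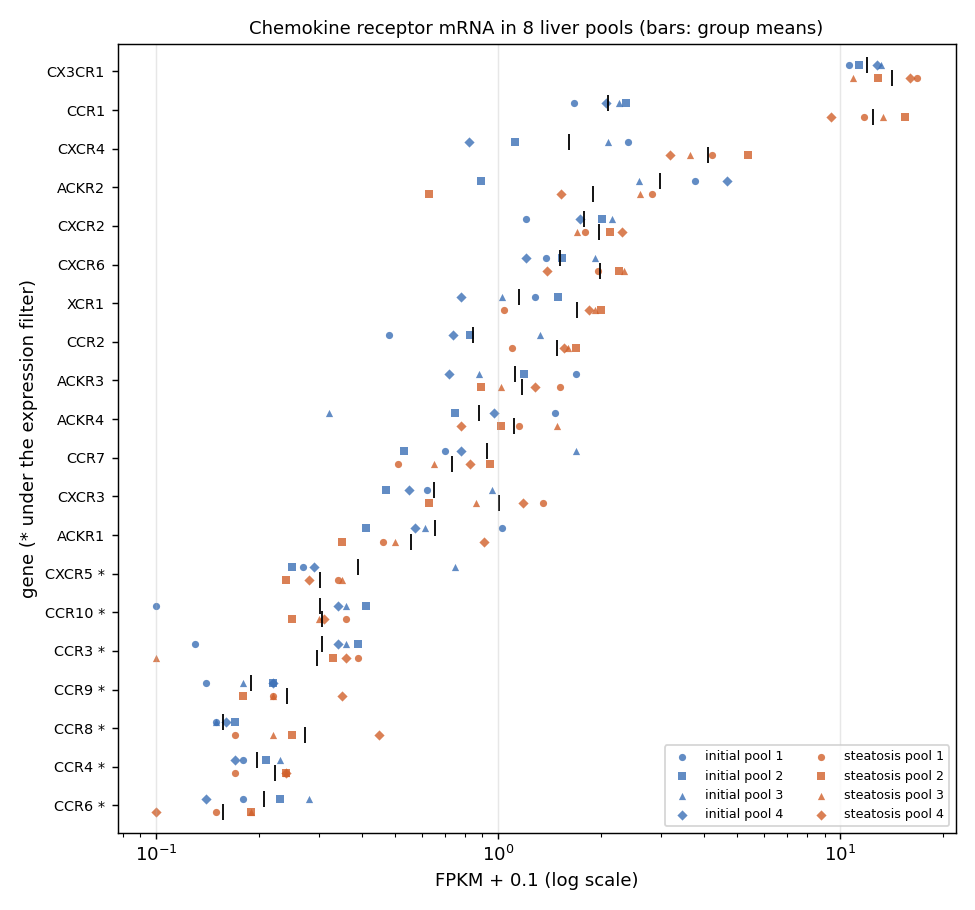
FPKM + 0.1 of the 20 receptors in each of the 8 pools on a log axis, blue for the initial state and orange for steatosis, with the marker shape giving the pool number and a black bar the group mean (n = 4 pools). A star marks receptors under the expression filter. CCR1 lies near 2 FPKM in the initial pools and between 9.27 and 15.3 FPKM in steatosis.

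Receptor mRNA was far lower than ligand mRNA, with sums over the 20 receptors of 24.8 to 31.3 FPKM in the initial pools and 42.2 to 46.2 FPKM in steatosis. The sums of the groups did not overlap, nor after median ratio scaling (25.2 to 35.0 and 38.2 to 42.1 FPKM). CCR1, described next, makes up much of this difference, so that the sums show nothing about the other receptors as a group. CCR1, a receptor of monocytes and macrophages for CCL3-type ligands and CCL5, had 1.57, 2.26, 2.16 and 1.96 FPKM initially and 11.6, 15.3, 13.2 and 9.27 FPKM in steatosis. The lowest steatosis pool was several times the highest initial pool. Means were 1.99 ± 0.305 and 12.4 ± 2.55 FPKM (SD, n = 4), and the log2 fold change of 2.57 (SE 0.17, adjusted p = 1.98e-05) had the lowest adjusted p of all members. The call was kept under all 15 alternatives, with log2 fold changes from 2.15 to 2.69. Nearly all of the CCR1 gene (chromosome 13, 29227218 to 29233862) lies within the annotated span of XCR1 (29150376 to 29233802). The overlap is 6585 bp, so that reads there could be counted for either gene, and XCR1 itself did not pass the test.

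CCR2, the CCL2 receptor of inflammatory monocytes, had 0.38, 0.73, 1.23 and 0.64 FPKM initially and 1.0, 1.59, 1.5 and 1.46 FPKM in steatosis. It was higher in 4 of 4 pairs with overlapping groups, by 0.89 on the log2 scale (SE 0.29, adjusted p = 0.0459), or 0.65 without initial pool 1 (adjusted p = 0.0824). Median ratio scaling also gave 0.65 (adjusted p = 0.139). CCR3, the receptor of CCL11, was under the filter, with 0.03, 0.29, 0.26 and 0.24 FPKM initially and 0.29, 0.23, 0 and 0.26 FPKM in steatosis.

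CXCR4, the receptor of CXCL12 on most leukocytes, had 2.30, 1.02, 1.99 and 0.72 FPKM initially and 4.12, 5.26, 3.54 and 3.07 FPKM in steatosis, without overlap. The log2 fold change of 1.46 (SE 0.33) missed the call by its adjusted p of 0.0103. With the block it was called (adjusted p = 0.00820), as it was without initial pool 1 (1.69, adjusted p = 0.00466). ACKR3, the atypical receptor of the same ligand, stood at 1.02 ± 0.427 and 1.08 ± 0.280 FPKM (log2 fold change 0.12, SE 0.28, adjusted p = 0.777), or 0.34 without initial pool 1 (adjusted p = 0.337).

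CX3CR1, the fractalkine receptor of monocytes and macrophages, was the most abundant receptor in the initial state. Its values were 10.5, 11.3, 13.03 and 12.7 FPKM initially and 16.7, 12.8, 10.8 and 15.9 FPKM in steatosis. The groups overlap, and the log2 difference was 0.23 (SE 0.15, adjusted p = 0.271, 95% interval -0.10 to 0.56). In the initial state all CX3CR1 values were above all CCR1 values, whereas in steatosis their ranges overlapped and CCR1 was the highest receptor in pools 2 and 3.

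The receptors of lymphocytes and dendritic cells did not pass the test. CXCR6, the CXCL16 receptor of T and NK cells, was higher in 4 of 4 pairs with means of 1.41 ± 0.303 and 1.89 ± 0.429 FPKM (log2 fold change 0.38, SE 0.21, adjusted p = 0.191). CXCR3, the receptor of CXCL9, CXCL10 and CXCL11, had 0.52, 0.37, 0.86 and 0.45 FPKM initially and 1.25, 0.53, 0.76 and 1.08 FPKM in steatosis (0.62, SE 0.30, adjusted p = 0.143). XCR1, the receptor of XCL1, stood at 1.05 ± 0.311 and 1.6 ± 0.445 FPKM (0.56, SE 0.27, adjusted p = 0.139), and CCR7 at 0.825 ± 0.521 and 0.635 ± 0.194 FPKM (adjusted p = 0.658). CXCR2, the neutrophil receptor, had 1.11, 1.91, 2.05 and 1.64 FPKM initially and 1.69, 2.02, 1.6 and 2.2 FPKM in steatosis. The groups overlap, and the log2 difference was 0.18 (SE 0.20, adjusted p = 0.534), or 0.0026 without initial pool 1.

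Among the atypical receptors, ACKR2, which degrades inflammatory CC chemokines, had 3.65, 0.79, 2.48 and 4.57 FPKM initially and 2.71, 0.53, 2.49 and 1.43 FPKM in steatosis. Pool 2 was the lowest in both groups, and the log2 fold change was -0.63 (SE 0.58, adjusted p = 0.435). ACKR1, the Duffy antigen of red cells and venules, and ACKR4, which binds CCL19, CCL21 and CCL25, stood between 0.22 and 1.39 FPKM in all pools, with log2 fold changes of -0.25 and 0.50 and adjusted p values of 0.621 and 0.392. Without initial pool 1 these were -0.0059 and 0.81 (adjusted p = 0.992 and 0.142). CXCR5, CCR10, CCR3, CCR9, CCR8, CCR4 and CCR6 were under the filter, the highest at 0.65 FPKM in any pool. Of all 20 receptors 2 (CCR1 and CXCR4) had groups without overlap, beside 23% of all listed genes higher and 2.06% lower.

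**Figure D4:**
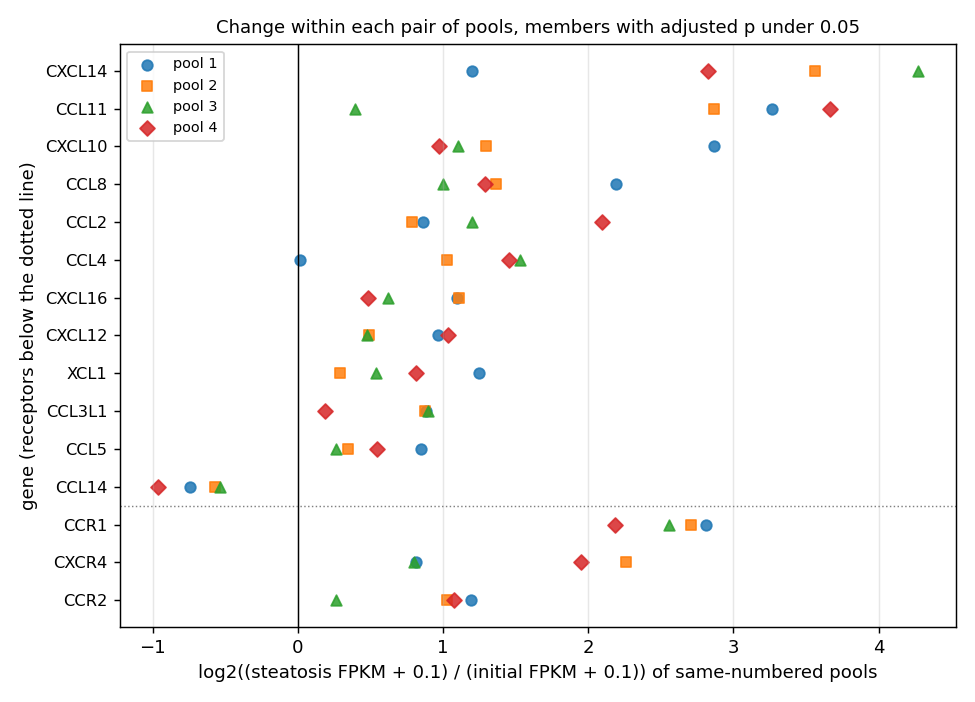
Log2 ratio of steatosis to initial FPKM + 0.1 within each pair of same-numbered pools, for the 15 members with an adjusted p under 0.05 (receptors below the dotted line, 1 marker per pair). Only CCL14 lies below 0, and the CCL4 value of pool 1 lies at 0.02.

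The size of the differences varied between the pairs of pools. For CXCL14 it was smallest in pool 1 (1.20) and largest in pool 3 (4.27), and for CXCL10 it was largest in pool 1 (2.87). CCR1 was the most even of the members with large changes, between 2.19 and 2.81 in the 4 pairs.

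Genes that transmit or shape chemokine signals without a chemokine symbol were listed as well. Of 67 listed genes 64 were tested, 11 were called higher and 0 lower, and their median log2 fold change was 0.58, beside 6.01% of all tested genes higher, 0.334% lower and a median of 0.25. After median ratio scaling 4 were called higher, beside 411 of all 13175 genes. MMP9, a protease that trims chemokines, had the largest change, with means of 0.47 ± 0.038 and 7.37 ± 0.977 FPKM, 3.71 apart on the log2 scale (SE 0.14, adjusted p = 2e-06). The signalling genes called higher were 9 of 47 (beside 6.01% of all tested genes), among them PAK1 (1.59), a kinase downstream of Rac, PLCB2 (1.395), the phospholipase of chemokine receptors in leukocytes, GRK3 (1.27) and ARRB1 (1.09), which switch receptors off, RGS2 (1.25), a brake on G proteins, and VAV1 (1.09), an exchange factor for Rac. CMKLR1, the chemerin receptor, was also called (1.27). None of the 4 tested genes for heparan sulphate carriers, which hold chemokines on cell surfaces, was called.

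Some markers of leukocytes and other cells also differed between the groups, and their part in the results was not tested. Whether they followed the chemokine genes from pool to pool was not tested either. The marker sums are on the deposited scale only, and whether the groups stay separate under another scaling was not tested. Counts of called marker genes stand beside 6.01% of all tested genes higher and 0.334% lower. The summed mRNA of 6 lipid-associated macrophage genes (TREM2, GPNMB, LGALS3, SPP1, CD9 and FABP5) was 39.3 to 61.0 FPKM in the initial pools and 742.5 to 1766 FPKM in steatosis, with 6 of 6 called higher. Of these, TREM2 passed the filter only through the steatosis pools, so that its difference was built into its selection. Of 12 macrophage genes 2 (CD68 and MARCO) were called higher, and the sum of the 12 was 906.3 to 1261 FPKM initially and 1334 to 1541 FPKM in steatosis. Log2 fold changes of the 12 ran from -0.34 (CD5L) to 3.33 (MARCO), with C1QA at 0.07. Of 12 T and NK cell genes only CD4 was called higher, with sums of 36.4 to 62.7 and 63.7 to 67.9 FPKM. These sums include CD4, with means of 8.21 and 18.2 FPKM. The median log2 fold change of the 12 was 0.30, beside 0.25 over all tested genes. CD3E, CD3G, CD8A and CD8B stood at 0.28, -0.03, 0.09 and 0.09. The sums of 7 endothelial genes, 134.6 to 170.8 FPKM and 184.6 to 193.5 FPKM, did not overlap either, with 0 of 7 called. Sums of the stellate cell genes (47.1 to 123.6 and 88.7 to 247.7 FPKM) and neutrophil genes (4.13 to 10.2 and 7.18 to 12.5 FPKM) overlapped. Of 7 tested stellate cell genes only LRAT was called higher, and log2 fold changes ran from -1.67 (LUM) to 1.25 (LRAT), with a median of 0.81. Of 4 tested neutrophil genes only CSF3R was called higher, with a range from -0.66 (S100A9) to 1.49 (CSF3R) and a median of -0.06. B and plasma cell genes summed to 17.7 to 46.9 FPKM initially and 11.7 to 16.1 FPKM in steatosis, with MS4A1 called lower. Dendritic cell genes summed to 1.73 to 2.84 and 3.10 to 4.92 FPKM with 0 of 3 tested genes called, and eosinophil and mast cell genes to no more than 2.47 FPKM in any pool.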

How the data were processed

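Poly-A RNA of 8 liver pools was sequenced as paired 100 bp reads (BGISEQ-500). The authors mapped reads to the pig genome with HISAT2 2.0.4 and estimated expression with Bowtie2 2.2.5 and RSEM 1.2.12, and they deposited FPKM per gene without a stated scaling between libraries. FPKM holds no counts, so precision is given as SD between pools. The deposited comparisons of single pool pairs hold the authors' fold changes and p-values by a Poisson method and were not used. Genes that reached 0.3 FPKM in 4 or more libraries were fitted with limma 3.58.1 in R 4.3.3 (trend, group as the term) on log2(FPKM + 0.1). The script was tested on simulated data. Tables and plots used Python 3.11.15, numpy 2.4.6, pandas 2.3.3 and matplotlib 3.10.9.

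Pool numbers were taken to pair libraries, because both states are the same animals. The paper does not say that pools of the same number hold the same pigs, so this pairing is an assumption. The main fit did not use it. Deviations from the group means correlated at 0.16, 0.35, 0.32 and 0.25 between pools of the same number, each over 0.1. The alternatives were a block for the pool number, 3 other scalings, no filter and a filter at 1 FPKM, a pseudocount of 1, each library left out and an adjusted p under 0.05 alone.

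The members and gene lists were chosen with earlier results of these data known. Values per pool are given for members called, with an adjusted p under 0.05, among the 5 most abundant ligands and receptors, or partners of called members, and after their values were seen also for CCL19, CCL21, CCL22, CXCL11 and CXCR3. At most 8 other pathway genes are named. All 50 members described had a RefSeq gene ID, from which positions were taken, and 1 member is not reported here. Replicates are pools, and the limma p-values weigh the difference of the groups against the variation between pools. The variance of each gene was drawn towards a trend over all tested genes. The main fit treated the states as separate samples, although they are the same animals.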

Additional observations from a re-analysis of the deposited data

Results flagged for a closer look

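In 11 of 100 groups of 4 pools, 1 pool lay far from the other 3 by Dixon's test at 95%. Chance does this in about 1 of 20 groups of normally distributed values, a rate that does not hold for tied values near 0. The groups with all pools at 0, CCL22 initially and CCL1 in steatosis, could not be flagged. For CXCL14 this was initial pool 1 at 9.35 FPKM, for CCL21 steatosis pool 1 at 34.3 FPKM, for CXCL2 steatosis pool 1 at 1.57 FPKM and for XCR1 steatosis pool 1 at 0.94 FPKM. The other 7 were at low values, where 1 pool was apart from pools near or at 0 or from nearly equal pools. They were CXCR5 in initial pool 3 at 0.65 FPKM, CCL11 in initial pool 3 at 0.22 FPKM, CCL17 in initial pool 1 at 0.18 and in steatosis pool 4 at 0.17 FPKM, CCL1 in initial pool 4 at 0.1 FPKM, CCL22 in steatosis pool 2 at 0.09 FPKM and CCR4 in steatosis pool 1 at 0.07 FPKM. Initial pool 1 is also the library with high skeletal muscle and stomach mucosa mRNA, whose part in its CXCL14 value was not tested.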

How the results depend on the processing

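With the pool number as a block, CXCL10 (adjusted p = 0.00810), CCL2 (0.00626) and CXCR4 (0.00820) were also called higher and CCL11 (0.0118) and CCL4 (0.0206) were not, and the block changed no other member's call. The 4 ligands called higher became 2 with upper quartile scaling, 2 with median ratio scaling, 2 with a pseudocount of 1, 1 to 4 with a library left out and 11 at an adjusted p under 0.05 with no fold limit, where 1 ligand was lower. Single libraries mattered for ligands, since 1 was left without initial pool 2 or without steatosis pool 1, 2 or 4, and 2 without initial pool 3 or steatosis pool 3. The 1 receptor called higher, CCR1, was joined by CXCR4 to make 2 with a filter at 1 FPKM, with a pseudocount of 1, with the block and without initial pool 1, the count was 1 to 2 with a library left out, and 3 were higher with the wider rule. The 11 partner genes became 6 and 4 with upper quartile and median ratio scaling, 4 with a pseudocount of 1, 10 to 13 with a library left out and 40 with the wider rule. Of all genes, the 792 higher became, in the same order, 439, 411, 395, 625 to 778 and 3519, and the 44 lower became 73 and 83 with these scalings, 26 to 50 with a library left out (28 without steatosis pool 2, 26 without steatosis pool 4) and 300 with the wider rule. The median log2 fold change of receptors was 0.16 with upper quartile scaling and 0.13 with median ratio scaling, and that of all genes 0.026 and -0.011 with these scalings.

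Members that were never called changed sign in places. With upper quartile and median ratio scaling the log2 fold changes were -0.042 and -0.079 for CCL21, -0.0069 and -0.045 for CX3CR1, -0.094 and -0.13 for ACKR3, -0.045 and -0.081 for CXCR2, and -0.12 and -0.16 for CCL28. With a library left out they ran from -0.14 to 0.046 for CCL16, from -0.17 to 0.36 for CCL21, from -0.0047 to 0.69 for CXCL11, from -0.069 to 0.34 for ACKR3, from -0.22 to 0.26 for CCL28 and from -0.45 to 0.11 for CCR7. The cause was not tested. Members near 0.3 FPKM are limited by depth, and a planned count of motifs in promoters was not run, since no promoter sequences were used here.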

Other observations

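Some genes are described as chemokines or their receptors without a symbol of that form, and were chosen here after their values were seen. The gene described as C-C motif chemokine 23 (gene ID 100516039), a ligand of CCR1 next to CCL14 on chromosome 12, had 2.36, 1.93, 1.94 and 1.71 FPKM initially and 3.46, 6.12, 5.69 and 4.11 FPKM in steatosis, without overlap, and was called higher (log2 fold change 1.22, SE 0.19, adjusted p = 0.00177). CCRL2, an atypical receptor of chemerin, had means of 2.14 ± 0.372 and 3.97 ± 0.628 FPKM (0.86, SE 0.16, adjusted p = 0.00434), below the limit on the fold. A gene described as a growth-regulated protein homolog (gene ID 100525396) varied between pools, with 12.1, 15.2, 42.4 and 3.57 FPKM initially and 12.99, 6.05, 25.5 and 3.52 FPKM in steatosis. Pool 3 was the highest and pool 4 the lowest in both states.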
